A study of Homo sapiens with 12 samples.

Results

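The S100 genes followed here were S100A7, S100A7A, S100A8, S100A9, S100A2, S100A4, S100A6, S100A10, S100A11 and S100A14, 10 of the 34227 genes listed in RNA-seq tables of SCC15 and SCC25 cells. They were matched by gene symbol, and they had been picked with their normalized counts under squamocin and under DMSO in view, so those values are given as a description with no p-value. Where members are counted by the call used for all genes, the share of all genes stands beside the count and nothing is read from it. The table of SCC25 cells listed all 10, whereas the table of SCC15 cells listed 9 and had no entry for S100A7A. SCC15 and SCC25 are established lines of human oral squamous cell carcinoma, a head and neck cancer, and both are labeled wild type. Cells of each line received squamocin (labeled ACGs, for annonaceous acetogenins, the plant compounds it belongs to) or its vehicle DMSO for 24 h, with 3 libraries in each of the 4 groups and 12 in all. The labels give no dose and do not say whether the libraries of a group came from separate cultures, so p-values measure the spread between these libraries, which may be technical.

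S100 proteins are small EF-hand calcium sensors found in vertebrates, most of which work as dimers, and most of their genes lie side by side in the epidermal differentiation region of chromosome 1. S100A8 and S100A9 form calprotectin, which binds zinc and manganese and is released as an alarmin. S100A7 (psoriasin) and S100A7A (koebnerisin) are antimicrobial proteins of stratified epithelium, and S100A2, S100A4, S100A6, S100A10, S100A11 and S100A14 mostly act inside the cell or at its membrane. In squamous epithelium, S100 genes are known to change with differentiation, wounding and inflammation.

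Values are normalized counts, which are reads per gene divided by a factor for each library. Every value gave back a whole number of reads within 0.01 of a read, and the recovered reads per library ranged from 16665563 to 22748845. The third squamocin library of SCC15 cells stood apart from the other two of its group (chi-square per degree of freedom over genes 69.4 and 61.3, against 1.74 to 10.8 for all other pairs within a group), and fold changes of S100 genes in SCC15 cells are also given without it. The authors' scaling left squamocin libraries with larger totals, so fold changes were also computed with equal library totals. That scaling moved the median log2 fold change of all tested genes from 0.01 to -0.48 in SCC15 cells and from -0.01 to -0.22 in SCC25 cells. Of 8 squamous markers examined, all were detected above 3 reads in SCC25 cells, while in SCC15 cells DSG3 was not, KRT5 was below the filter with a mean of 9.50 normalized counts with DMSO, EPCAM and TP63 were near it with 11.4 and 17.5, and KRT17 and KRT14 were abundant. The 2 tables were normalized separately, so levels in the 2 lines are set side by side and not compared.

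The sequences upstream of 6 members are shown because these genes differed most in direction or in the motif their promoter held. Each is the 250 bases before a RefSeq transcription start on GRCh38.p14, read 5′ to 3′ on the gene's strand, with matches to the searched motifs in capitals. Where RefSeq gave several starts, the one nearest to the gene's 5′ end in the deposited table was taken, which for S100A2 lay 2046 bases inside the deposited gene. RefSeq gave only 1 start for S100A11, 10903 bases inside the deposited gene. The only start of S100A4, whose window was searched but is not shown, lay 4330 bases inside it. The S100A9 window lies at chr1:153357604-153357853 on the plus strand, S100A8 at chr1:153391189-153391438 on the minus strand, S100A7A at chr1:153416270-153416519 on the plus strand and S100A7 at chr1:153460652-153460901 on the minus strand. S100A2 is at chr1:153565845-153566094 and S100A11 at chr1:152037005-152037254, both on the minus strand.
S100A9: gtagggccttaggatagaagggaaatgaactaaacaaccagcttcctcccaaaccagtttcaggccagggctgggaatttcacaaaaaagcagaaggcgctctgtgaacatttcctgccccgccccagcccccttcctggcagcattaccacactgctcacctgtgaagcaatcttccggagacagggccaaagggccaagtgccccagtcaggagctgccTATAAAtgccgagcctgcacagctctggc
S100A8: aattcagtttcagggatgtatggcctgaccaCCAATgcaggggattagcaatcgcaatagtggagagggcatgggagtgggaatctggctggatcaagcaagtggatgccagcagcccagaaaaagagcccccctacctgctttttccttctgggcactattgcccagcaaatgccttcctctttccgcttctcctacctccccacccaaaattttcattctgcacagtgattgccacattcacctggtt
S100A7A: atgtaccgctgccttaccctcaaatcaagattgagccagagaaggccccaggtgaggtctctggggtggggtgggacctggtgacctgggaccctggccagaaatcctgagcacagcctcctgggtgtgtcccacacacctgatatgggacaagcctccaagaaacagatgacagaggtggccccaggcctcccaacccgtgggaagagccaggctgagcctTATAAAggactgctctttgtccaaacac
S100A7: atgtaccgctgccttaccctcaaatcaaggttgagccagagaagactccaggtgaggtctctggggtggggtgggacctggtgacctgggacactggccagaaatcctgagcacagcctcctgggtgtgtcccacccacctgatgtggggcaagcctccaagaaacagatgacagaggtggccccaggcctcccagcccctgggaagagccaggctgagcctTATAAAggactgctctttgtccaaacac
S100A2: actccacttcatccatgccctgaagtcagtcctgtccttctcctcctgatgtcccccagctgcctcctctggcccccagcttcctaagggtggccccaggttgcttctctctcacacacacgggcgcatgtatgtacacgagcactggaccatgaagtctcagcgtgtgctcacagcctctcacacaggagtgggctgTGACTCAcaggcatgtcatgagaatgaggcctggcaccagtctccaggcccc
S100A11: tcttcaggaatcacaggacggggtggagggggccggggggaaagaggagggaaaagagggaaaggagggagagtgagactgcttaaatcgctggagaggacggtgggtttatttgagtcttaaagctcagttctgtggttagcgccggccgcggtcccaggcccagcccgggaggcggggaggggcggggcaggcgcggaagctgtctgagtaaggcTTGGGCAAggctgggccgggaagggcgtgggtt

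Motifs were searched on both strands in the window from 250 bases before to 50 bases after the start. A TATA box (TATAAA) stood 28 to 31 bases before the start in S100A9, S100A7A, S100A7 and S100A4, or 4 of the 10 members, and in 11.6% of 34796 promoters. The S100A8 window used here held a CCAAT box (CCAAT, in 34.6% of promoters), and the window of another RefSeq start of S100A8 held TATAAA 29 bases before it. S100A2 held an AP-1 site (TGANTCA, 7.73% of promoters) and S100A11 a C/EBP site (TTGCNNAA, 10.5%). None of the 10 windows held TGATGNAA (the ATF4-C/EBP site, 3.63%), an NF-kappaB site (1.91%), CACGTG (the E-box, 7.2%) or TGACGTCA (the cAMP response element, 1.84%). These are matches of letters, not sites shown to be bound. The search took exact letters only, and the variant TATAAG, which was not searched, stood in the windows of S100A6 and S100A14. The windows of S100A7 and S100A7A were identical at 289 of 300 bases (96.3%), and the G and C share was 51.3% to 57.3% in S100A7, S100A7A, S100A8 and S100A9 and 60.7% to 71.7% in the other 6, against a median of 58.7% for all promoters. In S100 genes outside the list it ran from 40% (S100G) to 62.7% (S100A13 and S100A1), with 56% in S100P and 58.3% in S100A16. Among these, S100A12, S100P, S100Z and S100G held TATAAA, and S100P held an ATF4-C/EBP match.

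In SCC25 cells, the secreted S100 genes were far lower with squamocin and most of the intracellular ones were higher. Of the 10 members, all of which passed the filter of a mean of at least 10 normalized counts (S100A7A through its DMSO libraries alone), 5 were higher (S100A2, S100A6, S100A10, S100A11 and S100A14) and 5 lower (S100A9, S100A8, S100A7, S100A7A and S100A4) at an adjusted p below 0.05. Over all 16539 genes tested in SCC25 cells, 38.3% were higher and 38.5% lower by the same call, and with equal library totals 30.4% and 47.4%. The choice of the members used these values, so the counts are a description. The median log2 fold change of the 10 was -0.07, against -0.01 for all genes.

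S100A9, the larger partner in calprotectin, had 30843, 30257 and 29025 normalized counts in the DMSO libraries of SCC25 cells and 183, 243 and 211 in the squamocin libraries. The mean was 141-fold lower with squamocin, and the fitted log2 fold change was -7.15 (SE 0.080, n = 3 per group). The 2 groups were far apart, and the libraries within each lay close together. Per length, S100A9 was the 10th most abundant transcript of the DMSO cells, at an RPKM (reads scaled to exon length and library total) of 2867 ± 82.2 (SD, n = 3), and the 2582nd of the squamocin cells, at 17.6 ± 2.45.

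S100A8, its partner, had 14104, 12899 and 12902 normalized counts with DMSO in SCC25 cells and 141, 141 and 125 with squamocin. The mean was 97.8-fold lower, with a log2 fold change of -6.60 (SE 0.061). Both subunits of calprotectin were lower in every squamocin library, and both were still detected. The ratio of S100A9 to S100A8 reads was 2.26 ± 0.0800 with DMSO and 1.57 ± 0.234 with squamocin (SD, n = 3 each), with no overlap between the groups.

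S100A7, an antimicrobial protein named for psoriasis, had 1229, 1186 and 1050 normalized counts with DMSO in SCC25 cells and 7.63, 13.5 and 8.88 with squamocin, a mean 115-fold lower. The squamocin values rest on 27 reads over the 3 libraries. S100A7A had 583, 533 and 525 normalized counts with DMSO and no read in any squamocin library. Against a floor of 3 reads per library, S100A7A was at least 160-fold lower, where the floor covers counting error only. Its fitted fold change depends on the pseudocount and is not given. By fitted log2 fold change, S100A9 ranked 6th from the lowest of 16539 tested genes, S100A7 11th and S100A8 14th, and 44 genes (0.266%) had a value of -5 or lower, where genes without reads in a group were counted by their fitted values. S100A7 shares 69 of its 437 distinct 50-base transcript stretches (15.8%) with S100A7A, so reads from those stretches could have been split between both genes.

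In SCC15 cells, S100A8 and S100A9 were lower with squamocin and S100A7 was barely detected. S100A9 had 688, 596 and 731 normalized counts with DMSO and 92.7, 133 and 194 with squamocin, and its log2 fold change was -2.31 (SE 0.25). S100A8 had 613, 566 and 625 with DMSO and 48.7, 59.3 and 137 with squamocin, with a log2 fold change of -3.02 (SE 0.35). The third squamocin library had the highest value of its group for both genes and still lay below every DMSO library. Without it, the log2 fold changes were -2.58 and -3.46. The ratio of S100A9 to S100A8 reads was 1.11 ± 0.0582 with DMSO and 1.86 ± 0.418 with squamocin, higher with squamocin in SCC15 cells and lower in SCC25 cells.

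S100A7 had 2 reads in all DMSO libraries of SCC15 cells together and 6 in all squamocin libraries, too few for a fold change, and it did not pass the filter. Of the 9 members listed in SCC15 cells, 8 passed it, of which 5 were higher (again S100A2, S100A6, S100A10, S100A11 and S100A14), 2 lower (S100A8 and S100A9) and 1, S100A4, not past the threshold. Over all 15902 genes tested in SCC15 cells, 30.9% were higher and 30% lower. Without the third squamocin library the counts of members were the same, while the shares of all genes were 38.4% and 37.2%. With equal library totals the counts of members were again the same, and the shares of all genes were 14.8% and 50.5%. The median log2 fold change of the 8 was 0.98, against 0.01 for all genes. It was 0.73 against 0.01 without the third squamocin library and 0.49 against -0.48 with equal library totals.

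**Figure D1:**
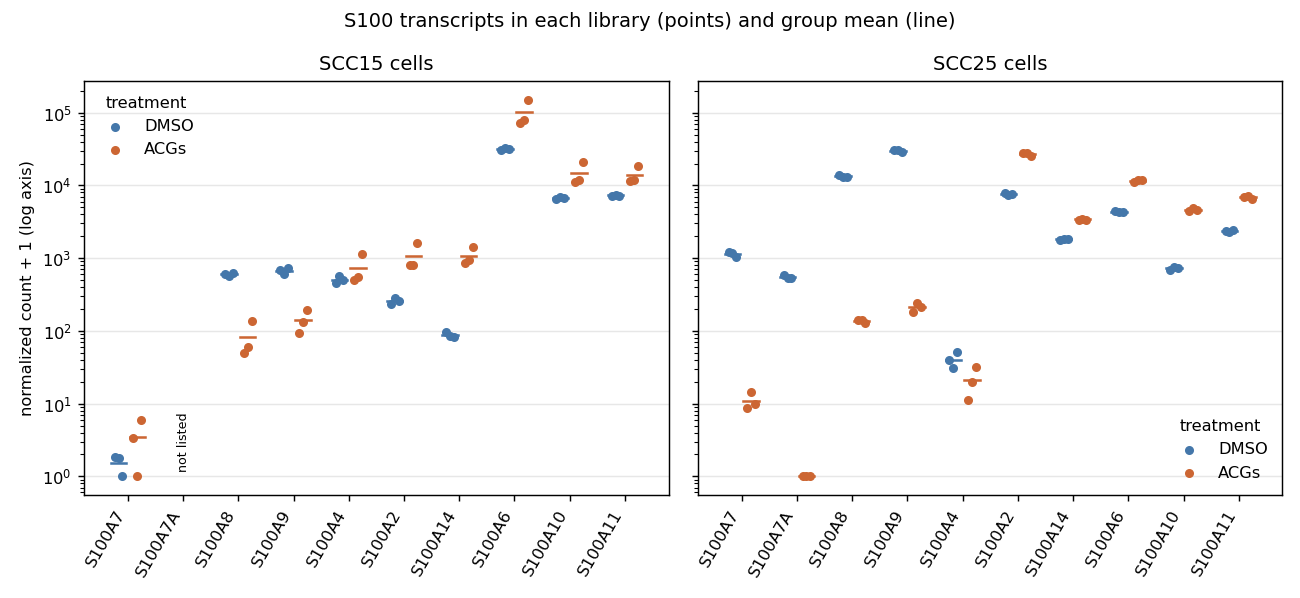
Normalized count plus 1 on a log axis for each member in each library (points) with the group mean (line), for DMSO and squamocin (ACGs) in SCC15 and SCC25 cells, 3 libraries per group. In SCC25 cells the points of S100A7, S100A7A, S100A8 and S100A9 are far lower with squamocin, S100A7A is at 0 reads in all 3 squamocin libraries, and S100A2, S100A6, S100A10, S100A11 and S100A14 are higher in both lines.

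Among the intracellular members, S100A2, a protein of basal keratinocytes, was the most abundant of the family with squamocin in SCC25 cells. It had 7903, 7479 and 7732 normalized counts with DMSO and 27501, 27821 and 25275 with squamocin, a log2 fold change of 1.80 (SE 0.044). In SCC15 cells it had 236, 281 and 254 with DMSO and 814, 809 and 1629 with squamocin, and the log2 fold change was 1.99 (SE 0.26), or 1.66 without the third squamocin library. The difference of the 2 log2 fold changes, SCC15 minus SCC25, was 0.19 (SE 0.28), and its sign turned without that library (-0.14) and with equal library totals (-0.10).

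S100A6 (calcyclin), a partner of annexins and of the CACYBP ubiquitin ligase adaptor, was the most abundant member in SCC15 cells. Its normalized counts there were 31002, 32509 and 31976 with DMSO and 72558, 79486 and 150086 with squamocin, a log2 fold change of 1.58 (SE 0.27). The log2 fold change was 1.25 without the third squamocin library. In SCC25 cells S100A6 had 4489, 4281 and 4271 with DMSO and 11294, 11762 and 11991 with squamocin, a log2 fold change of 1.43 (SE 0.040). An antisense gene, BX470102.1, overlaps S100A6 by 517 bases, and it is not stated whether reads were counted by strand, so reads of the overlap cannot be assigned to one of the 2 genes.

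S100A10 (p11), which joins annexin A2 in a membrane complex that binds plasminogen activators, was the intracellular member with the largest increase in SCC25 cells. It had 688, 752 and 727 normalized counts with DMSO in these cells and 4512, 4872 and 4551 with squamocin, a log2 fold change of 2.68 (SE 0.051), and it ranked 273rd from the highest of 16539 genes. In SCC15 cells S100A10 had 6448, 6999 and 6666 with DMSO and 10986, 11974 and 20984 with squamocin, a log2 fold change of 1.07 (SE 0.23). It was 0.78 without the third squamocin library and 0.57 with equal library totals. Set against its partner, S100A10 had 3.06 ± 0.129 reads per 100 ANXA2 reads with DMSO in SCC25 cells and 16.5 ± 0.588 with squamocin. In SCC15 cells the same ratio was 42.3 ± 1.68 with DMSO and 41.9 ± 5.35 with squamocin (SD, n = 3 each), with overlapping groups.

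S100A11 (calgizzarin), a partner of annexin A1, was higher with squamocin in both lines. In SCC25 cells it had 2382, 2323 and 2437 normalized counts with DMSO and 6835, 7086 and 6559 with squamocin, a log2 fold change of 1.52 (SE 0.043). In SCC15 cells it had 7100, 7500 and 7252 with DMSO and 11540, 11813 and 18424 with squamocin, a log2 fold change of 0.90 (SE 0.18) that was 0.68 without the third squamocin library and 0.40 with equal library totals. Relative to ANXA1, S100A11 had 33.0 ± 1.25 reads per 100 with DMSO and 55.4 ± 0.784 with squamocin in SCC25 cells, and 93.7 ± 0.542 and 113 ± 10.1 in SCC15 cells (SD, n = 3 each), without overlap in either line.

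S100A14, a member of epithelial cells, was the member with the largest increase in SCC15 cells. It had 96.4, 83.8 and 81.2 normalized counts with DMSO there and 868, 939 and 1438 with squamocin, 12.4-fold in the ratio of means, with a log2 fold change of 3.59 (SE 0.20) and rank 81 from the highest of 15902 genes. The log2 fold change was 3.36 without the third squamocin library. In SCC25 cells S100A14 had 1789, 1844 and 1831 with DMSO and 3334, 3495 and 3386 with squamocin, a log2 fold change of 0.90 (SE 0.042). Every squamocin library lay above every DMSO library of its line.

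S100A4 (metastasin), known from mesenchymal cells and tumor invasion, was the member with the least regular pattern. In SCC25 cells it was scarce, with 38.7, 29.7 and 49.6 normalized counts with DMSO and 10.2, 18.7 and 31.1 with squamocin, and the groups overlapped although the fitted log2 fold change was -1.04 (SE 0.36). Its call as lower was lost without the first squamocin, the first DMSO or the third DMSO library of SCC25 cells, which left 4 members lower. In SCC15 cells it had 450, 559 and 503 with DMSO and 505, 546 and 1143 with squamocin. The log2 fold change of 0.44 (SE 0.29) was 0.07 without the third squamocin library and -0.06 with equal library totals, so it had no stable direction. S100A4 overlaps the whole of S100A3 on the same strand, over 2044 bases, which limits how reads of the 2 genes could be assigned.

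Ordered by RPKM, the DMSO cells of SCC25 ran from S100A9 (2867) through S100A8 (816), S100A2 (273), S100A6 (245), S100A11 (201), S100A7 (130), S100A14 (78.0), S100A10 (39.0) and S100A7A (6.71) to S100A4 (2.27), and no 2 neighbors in that order overlapped between libraries. With squamocin, S100A2 (823), S100A6 (570), S100A11 (498), S100A10 (217) and S100A14 (126) led, followed by S100A9 (17.6) and S100A8 (7.22), while S100A4 and S100A7 overlapped at about 1 and S100A7A was at 0. In SCC15 cells S100A6 led in both treatments (2114 with DMSO and 4619 with squamocin), followed by S100A11 (724 and 965) and S100A10 (427 and 647). S100A14, which was second from last with DMSO at 4.40, stood beside S100A4 and S100A2 with squamocin, where these 3 neighbors overlapped between libraries (38.1, 34.3 and 31.2). The per-length values use the summed exon length of GENCODE v44, which for S100A7A (4458 bases) includes long transcripts and lowers its level.

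As a share of all gene reads, S100A7, S100A7A, S100A8 and S100A9 together made up 0.246% ± 0.00833 (SD, n = 3) in SCC25 cells with DMSO and 0.00170% ± 0.000158 with squamocin. The other 6 members made up 0.0931% ± 0.00147 and 0.253% ± 0.00566. The sum over all S100 genes differed far less, at 0.357% ± 0.00910 with DMSO and 0.282% ± 0.00615 with squamocin. In SCC15 cells, the first set was 0.00821% ± 0.000658 with DMSO and 0.000997% ± 0.000337 with squamocin, the other 6 were 0.301% ± 0.00821 and 0.590% ± 0.171, and all S100 genes 0.346% ± 0.00787 and 0.664% ± 0.187. The large spread of the SCC15 squamocin group came with the third library, in which the other 6 members took 0.787% of reads.

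**Figure D2:**
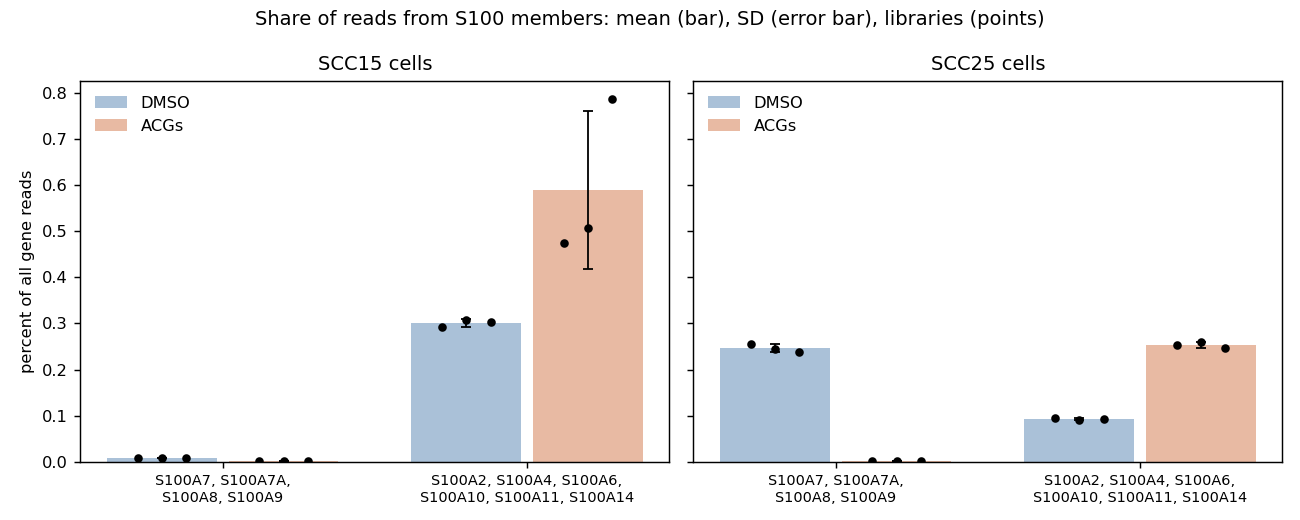
Percent of all gene reads taken by S100A7, S100A7A, S100A8 and S100A9 and by the other 6 members, per library (points), with the mean (bar) and SD (error bar) of 3 libraries per group. The first set is at 0.246% with DMSO and 0.00170% with squamocin in SCC25 cells, where the other 6 are at 0.0931% and 0.253%.

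The response of S100A8 and S100A9 was smaller in SCC15 cells than in SCC25 cells. The difference of the log2 fold changes, SCC15 minus SCC25, was 4.83 (SE 0.28) for S100A9, 3.59 (SE 0.37) for S100A8, 2.68 (SE 0.21) for S100A14 and 1.48 (SE 0.51) for S100A4. It was -1.62 (SE 0.25) for S100A10 and -0.62 (SE 0.19) for S100A11, whose increase was larger in SCC25 cells. For S100A6 it was 0.16 (SE 0.28), which turned to -0.17 without the third squamocin library of SCC15 cells and to -0.13 with equal library totals. Without that library the differences were 4.57 for S100A9, 3.14 for S100A8, 2.46 for S100A14, 1.11 for S100A4, -1.91 for S100A10 and -0.84 for S100A11. Of the 8 members tested in both lines, 4 had a more positive response in SCC15 cells and 2 a more negative one at an adjusted p below 0.05, where 26.1% and 26% of 14454 genes did. Without the third squamocin library of SCC15 cells the counts were 4 and 3, with S100A6 added, where 32.5% and 33.4% of genes did. Leaving out 1 other library removed S100A4 in 5 cases, which left 3 more positive. Equal library totals also removed S100A4, with 16.6% and 37.7% of genes called. As the members were picked with both responses in view, these values are a description.

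S100 genes outside the list are those left once the members had been chosen by their normalized counts under squamocin and under DMSO. That choice also set which genes were left, so the adjusted p-values of the genes outside the list are not an independent test of the family. These genes were tested with limma on log2(normalized count + 1) with Benjamini-Hochberg adjustment over all genes of the line. In SCC25 cells, 5 of the 9 listed passed the filter, of which 2 rose and 1 fell, where 38.3% and 38.5% of all genes did. S100A13, which assists the release of FGF1, rose from 314, 293 and 298 normalized counts with DMSO to 1534, 1605 and 1514 with squamocin (log2 fold change 2.36, SE 0.060, limma adjusted p = 4.40e-12). S100A16 rose less (0.58, SE 0.039, limma adjusted p = 3.01e-08). S100A12 (calgranulin C), which lies between S100A9 and S100A8, had 34.7, 37.8 and 35.4 normalized counts with DMSO and 0, 2.08 and 2.22 with squamocin. It was at least 10.5-fold lower against the floor of 3 reads per library (limma adjusted p = 9.18e-06). S100A12 passed the filter through its DMSO libraries alone, and its squamocin values rest on 4 reads over the 3 libraries. Its adjusted p is therefore given as a description. It was not tested when every library had to hold at least 10 normalized counts. S100A3 and S100A1 did not pass the threshold, and S100A5, S100P, S100Z and S100G were too low to be tested.

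In SCC15 cells, 6 of the 7 listed passed the filter, of which 3 rose and 1 fell, where 30.9% and 30% of all genes did. S100P, a member on chromosome 4 that binds ezrin and AGER, had 514, 512 and 538 normalized counts with DMSO and 1834, 1775 and 3703 with squamocin (log2 fold change 2.14, SE 0.26, limma adjusted p = 4.54e-04). S100A16 rose by 1.48 (SE 0.19, limma adjusted p = 5.68e-04) and S100A13 by 1.29 (SE 0.21, limma adjusted p = 0.00159) on the log2 scale. Without the third squamocin library the log2 fold changes were 1.79 for S100P, 1.25 for S100A16 and 1.03 for S100A13. S100A1 fell from 62.3, 48.2 and 48.0 to 40.6, 27.4 and 27.4 normalized counts (log2 fold change -0.73, SE 0.23, limma adjusted p = 0.0286), a call that was lost when any DMSO library or the second squamocin library of SCC15 cells was left out, while without the third squamocin library S100A3 also fell. S100A3 (-0.15) and S100A5 (-0.61) did not pass, but both passed as lower with equal library totals. S100A13 and S100A1 overlap on opposite strands over 3435 bases. S100A13 also overlaps AL162258.1 on the same strand over 5029 bases and shares 18.8% of its 50-base transcript stretches with it. The counts of S100A13 and S100A1 are therefore uncertain.

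The responses of S100A16 and S100A13 differed between the lines in opposite directions. S100A16 rose more in SCC15 cells, with a difference of 0.90 (SE 0.21, limma adjusted p = 0.00267), and S100A13 rose more in SCC25 cells, with a difference of -1.06 (SE 0.23, limma adjusted p = 0.00201). Without the third squamocin library of SCC15 cells the differences were 0.66 and -1.33. The differences for S100A3 (-0.09) and S100A1 (-0.51) did not pass the threshold. Of these 4 genes tested in both lines, 1 was thus more positive and 1 more negative in SCC15 cells, where 26.1% and 26% of 14454 genes were.

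Along chromosome 1 the family falls into 3 stretches of the deposited GRCh38 coordinates. S100A10 (151982915 to 151994390) and S100A11 (152032506 to 152047907) lie together, S100A9 (153357854 to 153361027), S100A12, S100A8, S100A7A and S100A7 (153457744 to 153460701) follow each other, and S100A6 (153534599 to 153536244) to S100A1 (153627926 to 153632039) form the last. All 5 genes of the middle stretch were lower with squamocin in SCC25 cells, where 38.5% of all genes were. All but S100A12 are members picked with these values in view, so the count is a description. S100A7A and S100A12 passed the filter through their DMSO libraries alone. In SCC15 cells S100A9 and S100A8 were lower, S100A7 was too low to be tested, and S100A7A and S100A12 were not listed. The 5 members with higher counts in both lines lay in the first and last stretches. The last stretch also held S100A16 and S100A13, outside the list, which were higher in both lines. It held S100A3, S100A4, S100A5 and S100A1 too, which were not called higher in either line. S100A5 was not tested in SCC25 cells.

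**Figure D3:**
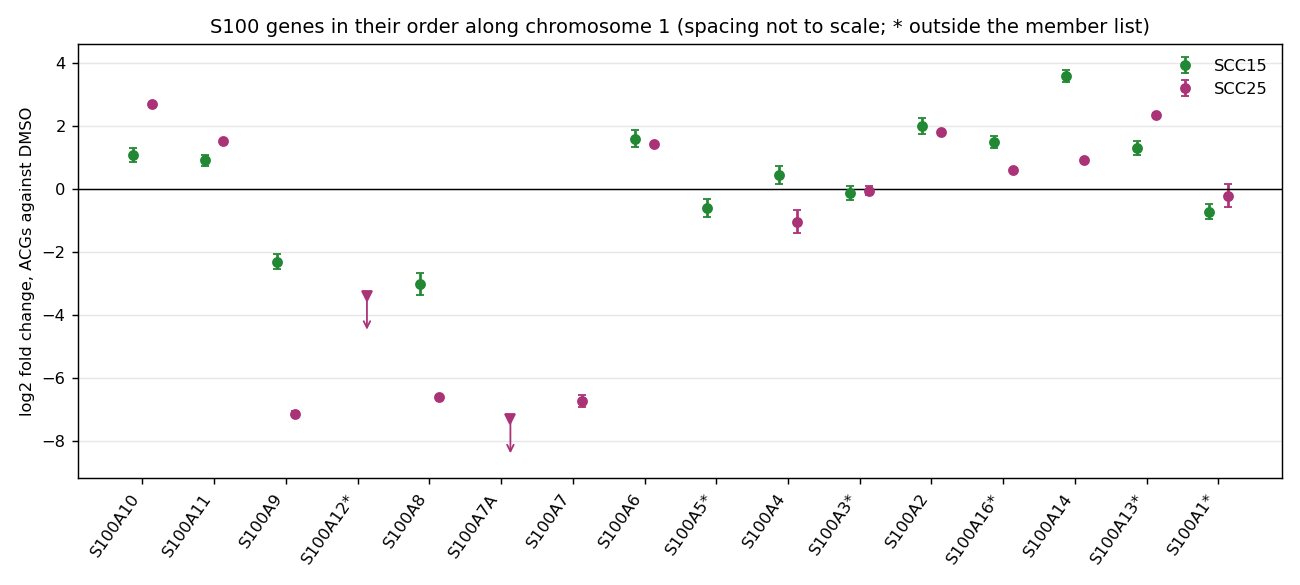
Log2 fold change of squamocin (ACGs) against DMSO with its SE (3 libraries per group) for S100 genes tested in SCC15 or SCC25 cells, in their order along chromosome 1. Triangles with arrows are upper bounds for genes at or under 3 reads per library with squamocin (S100A7A and S100A12 in SCC25 cells), and the genes from S100A9 to S100A7 are the lowest in the plot.

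Genes near the S100 genes went in both directions. Of the 19 other genes within 100 kb, 11 were tested in SCC25 cells, of which 4 rose and 4 fell, close to the shares of all genes (38.3% and 38.5%). With equal library totals 2 rose and 6 fell. PGLYRP4, a peptidoglycan-binding antimicrobial protein next to S100A9, fell from 314, 336 and 310 normalized counts to 11.4, 8.32 and 17.8 (log2 fold change -4.63, SE 0.23, limma adjusted p = 1.67e-09). Its neighbor PGLYRP3 fell by 3.59 (SE 0.67, limma adjusted p = 3.16e-04) and the hair follicle protein gene TCHH by 3.15 (SE 0.63, limma adjusted p = 5.51e-04) on the log2 scale, from means of 20.3 and 24.0 normalized counts with DMSO. Both passed the filter through their DMSO libraries alone, and their squamocin values rest on 4 and 7 reads over 3 libraries. Their adjusted p-values are therefore given as a description. When every library had to hold at least 10 normalized counts, 7 neighbors were tested, of which 4 rose and 1, THEM4, fell. Under that filter 5771 of 14173 genes rose and 5305 fell. The log2 fold change of PGLYRP3 was -4.41 without the third squamocin library, and that of TCHH was -2.43 without the first and -3.75 without the second. BX470102.1, the gene antisense to S100A6, rose by 2.48 (SE 0.25, limma adjusted p = 1.13e-06), with the limit on strand given above. CHTOP, ILF2 and INTS3, which sit past S100A1, rose by 0.32, 0.16 and 0.23 on the log2 scale, and THEM4 fell by 0.38. The call of INTS3 was lost without the third DMSO library of SCC25 cells.

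In SCC15 cells, 9 of these neighbors were tested, with 4 higher and 1 lower, where 30.9% and 30% of all genes were. BX470102.1 rose by 2.04 (SE 0.24, limma adjusted p = 3.55e-04), CHTOP by 0.50, ILF2 by 0.55 and NPR1 by 0.54, and THEM4 fell by 0.76 (SE 0.21, limma adjusted p = 0.0171) on the log2 scale. With equal library totals only BX470102.1 remained higher and 5 neighbors were lower. The call of THEM4 as lower was lost without the second squamocin library or without any 1 DMSO library of SCC15 cells, 2 neighbors were lower without the first squamocin library, and 2 neighbors were higher in place of 4 without any 1 DMSO library, with ILF2 and NPR1 lost. The NPR1 call was also lost without the first or the second squamocin library, and edgeR and DESeq2 on recovered reads gave 4 higher and 1 lower. Of the S100-fused type genes (large EF-hand proteins of the cornified layer), HRNR fell with TCHH in SCC25 cells (log2 fold change -0.95, SE 0.22, limma adjusted p = 0.00180), whereas TCHH in SCC15 cells (-0.78, SE 0.43) did not pass.

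Receptors and binding partners of S100 proteins were tested in the same fits. In SCC25 cells all 19 were tested, of which 7 rose and 7 fell, close to the shares of all genes (38.3% and 38.5%). With equal library totals 6 rose and 9 fell, and without the third squamocin library of SCC25 cells 7 rose and 9 fell. ANXA2, the partner of S100A10, rose by 0.26 (SE 0.037, limma adjusted p = 3.70e-05), a call lost with equal library totals (0.05), and ANXA1, the partner of S100A11, rose by 0.77 (SE 0.037, limma adjusted p = 1.12e-09). PLAT, the tissue plasminogen activator that binds S100A10, fell from 11018, 11391 and 11162 normalized counts to 436, 408 and 520 (log2 fold change -4.63, SE 0.073, limma adjusted p = 7.36e-14). TRPV6, a calcium channel that S100A10 and annexin A2 bring to the membrane, fell by 1.74 (SE 0.35, limma adjusted p = 6.02e-04) and ANXA11 fell by 1.23 (SE 0.042, limma adjusted p = 5.57e-11). When every library had to hold at least 10 normalized counts, TRPV6 was not tested, and 6 of 18 partners were lower. STIP1, MCAM, AHNAK and MYH9 also fell. The receptor gene AGER rose by 1.00 (SE 0.12, limma adjusted p = 5.95e-06), FABP5 by 1.02 (SE 0.085, limma adjusted p = 2.10e-07), and ALCAM, NPTN and CACYBP also rose, while TLR4, a receptor of S100A8, had 23.4 normalized counts with DMSO and 18.3 with squamocin and did not pass.

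In SCC15 cells 18 of these partners were tested, of which 7 rose and 3 fell, where 30.9% and 30% of all genes did. ANXA2 rose by 1.08 (SE 0.17, limma adjusted p = 0.00131), more than in SCC25 cells (difference 0.83, SE 0.18, limma adjusted p = 0.00206), and ANXA1 rose by 0.63 (SE 0.14, limma adjusted p = 0.00593), a call lost with equal library totals (0.13). BSG, a receptor of S100A9, rose by 1.16 (SE 0.13, limma adjusted p = 2.82e-04). TLR4 fell from 389, 364 and 443 normalized counts to 125, 95.7 and 108 (log2 fold change -1.86, SE 0.14, limma adjusted p = 5.85e-05). PLAT rose by 0.98 (SE 0.18, limma adjusted p = 0.00249), opposite to SCC25 cells (difference 5.61, SE 0.16, limma adjusted p = 4.29e-10), a call in SCC15 cells that was lost with equal library totals (0.50). ANXA11, ANXA6 and COPS5 also rose, and MCAM and AHNAK fell. With equal library totals 2 rose and 7 fell, and without the third squamocin library 9 rose and 5 fell, so the numbers in each direction in SCC15 cells depend on the scaling and on that library. Without any 1 DMSO library 6 rose in place of 7, with COPS5 lost, and 2 fell in place of 3, with AHNAK lost.

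Among regulators of S100 genes in epithelium, CEBPB, a C/EBP factor of keratinocyte differentiation, rose in both lines, from 4003, 3865 and 3696 normalized counts to 31150, 31656 and 30162 in SCC25 cells (log2 fold change 3.01, SE 0.041, limma adjusted p = 2.00e-14) and by 2.04 (SE 0.18, limma adjusted p = 1.21e-04) in SCC15 cells. In SCC25 cells all 15 regulators were tested, of which 8 rose and 5 fell, where 38.3% and 38.5% of all genes did. GRHL3 rose by 2.54 (SE 0.43, limma adjusted p = 1.41e-04) and KLF4 by 2.24 (SE 0.048, limma adjusted p = 1.09e-12), both factors of the epidermal barrier. GRHL3 passed the filter through its squamocin libraries and had 10 reads over the 3 DMSO libraries, and it was not tested when every library had to hold at least 10 normalized counts. The adjusted p of GRHL3 is therefore given as a description. IL36G, TP63, CEBPD, NFKB1 and IL17RC also rose. IL17RA, a receptor for the cytokine that induces S100A7, S100A8 and S100A9 in skin, fell by 1.36 (SE 0.083, limma adjusted p = 1.15e-08), CEBPA by 1.00 (SE 0.15, limma adjusted p = 4.46e-05) and IL1B by 0.68 (SE 0.039, limma adjusted p = 5.80e-09), and IL1A and STAT3 also fell. The call of IL17RC was lost without the second DMSO library of SCC25 cells and with equal library totals (-0.0073).

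In SCC15 cells 13 regulators were tested, of which 7 rose and 2 fell, where 30.9% and 30% of all genes did. CEBPD rose by 2.12 (SE 0.23, limma adjusted p = 2.49e-04) and IL1B by 1.48 (SE 0.18, limma adjusted p = 4.09e-04), and RELA, IL1A, KLF4 and IL17RC also rose. IL22RA1 (-0.68, SE 0.20, limma adjusted p = 0.0223) and IL17RA (-0.64, SE 0.11, limma adjusted p = 0.00178) fell. The IL1B response went in opposite directions in the 2 lines, with a difference of 2.16 (SE 0.19, limma adjusted p = 1.70e-06), and so did IL1A, with 1.39 (SE 0.13, limma adjusted p = 2.48e-06). With equal library totals 6 regulators rose, without IL17RC, and 5 fell in SCC15 cells, and 1 fell without the second squamocin, the first DMSO or the third DMSO library, where IL22RA1 was lost.

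**Figure D4:**
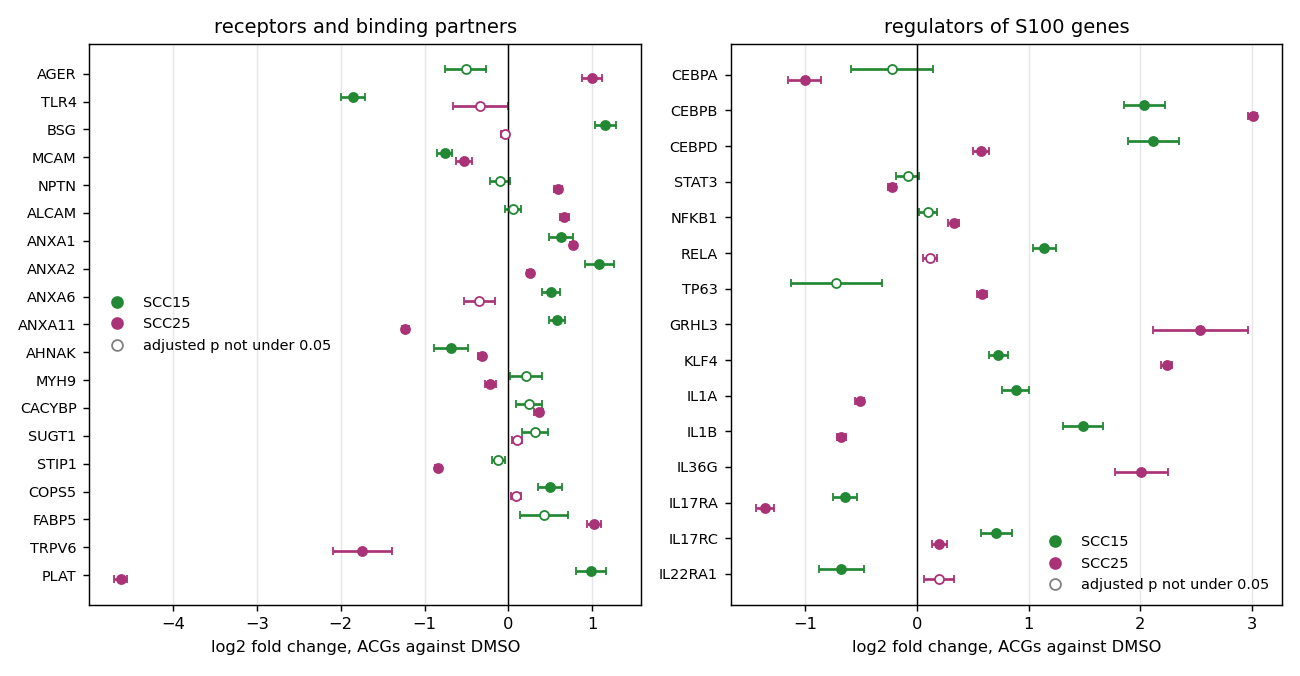
Log2 fold change of squamocin (ACGs) against DMSO with its SE (3 libraries per group) for receptors and binding partners (left) and regulators (right) of S100 genes in SCC15 and SCC25 cells, with open points where the limma adjusted p was not under 0.05. PLAT lies at -4.63 in SCC25 cells and 0.98 in SCC15 cells, and CEBPB is at 2.04 and 3.01.

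Genes whose pattern over the 12 libraries was most like a member's were found from log2(normalized count + 1) minus the DMSO mean of the line, among 14454 genes tested in both lines. The libraries fall into treated and untreated groups, so these correlations largely follow the treatment and are a description. S100A9 was most like ID1 (Pearson r = 0.9985), MCM4 and FAM20C, and S100A8 most like CENPB (0.9985), HNRNPAB and IL17RA. S100A14 was most like GAS5 (0.9982), PCK2 and STC2, and S100A10 most like BCL2L1 (0.9985), WDR41 and HSP90AA1. For S100A2 the nearest were CCNI (0.9979), KDELR2 and GHITM, for S100A6 the pseudogene AC016734.1 (0.9980), SELENOW and GHITM, and for S100A11 HMGN2 (0.9978), TIPRL and UBE2E3. S100A4 had no neighbor as close, with CFD at 0.927.

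S100A8, S100A9 and S100A12 are also abundant in myeloid cells, so leukocyte markers were examined. In SCC25 cells, 6 of 8 leukocyte markers were listed, with a summed level of 535 to 649 normalized counts with DMSO and 90.2 to 119 with squamocin. PTPRC, LYZ and FCN1, which define leukocytes or monocytes, were at or below 3 reads per library in both treatments. CSF3R, of the same list, had 10.5, 15.3 and 9.74 normalized counts with DMSO and no read with squamocin, and it did not pass the filter. CD68 was above the floor of 3 reads per library in both treatments. CD14 had 355, 393 and 306 normalized counts with DMSO and 3.81, 7.28 and 3.33 with squamocin, and HLA-DRA had 153, 172 and 145 and 22.9, 31.2 and 28.9. ITGAM had 60.4, 62.1 and 67.3 with DMSO and 63.6, 75.9 and 78.8 with squamocin, with overlapping groups (log2 fold change 0.19). In SCC15 cells 5 of the 8 were listed, with a summed level of 1321 to 1409 with DMSO and 986 to 1637 with squamocin. There PTPRC was above the floor of 3 reads per library with DMSO only, and CD68 with squamocin only. CD14 and HLA-DRA were above it in both treatments, and CSF3R, FCN1, ITGAM and LYZ in neither. Among the other lists in SCC25 cells, the 4 endothelial markers summed to 233 to 296 with DMSO and 19.8 to 37.7 with squamocin, the 6 fibroblast markers to 766 to 810 and 1073 to 1228, and the 3 melanocyte and nerve markers to 140 to 155 and 62.3 to 74.4. In SCC15 cells these 3 lists summed to 158 to 178 and 66.1 to 77.1, to 708 to 784 and 482 to 486, and to 57.6 to 61.7 and 32.5 to 53.6. The part of other cells in the S100 values was not tested, and in bulk RNA fewer cells of a type and less RNA per cell cannot be told apart.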

How the data were processed

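RNA-seq libraries were made with an NEBNext kit, and the authors aligned clean reads to GRCh38 with HISAT2 2.0.5 and counted them per gene with featureCounts 1.5.0-p3, per the submitters' processing notes. The annotation release and the use of strand are not given in the sources used here. The deposited per-library signal is a count divided by a size factor, also where the header of the SCC25 table says FPKM, and all values (100%) gave whole reads. Columns holding the authors' own comparison (log2 fold change and p-values) were not used.

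The members and the lists of related genes were chosen with earlier results of these data known. Each line was fitted alone with limma 3.58.1 (R 4.3.3) on log2(normalized count + 1), over genes with a mean of at least 10, two-sided, with an adjusted p threshold of 0.05. The difference between lines was a contrast over all 12 libraries. A fold change is on this log2 scale and understates the change of low genes. Floors were set at 3 reads per library, and they cover counting error only, since no molecular identifiers were read. On recovered reads, edgeR 4.0.16 (quasi-likelihood) called 5074 genes higher and 4757 lower in SCC15 cells and 6413 and 6384 in SCC25 cells. Alternatives were DESeq2 1.42.0, TMM, equal totals, other pseudocounts and filters, a replicate block and leaving out each library. All S100 genes outside the list that passed the filter are named, and of each related list the 3 largest changes past the threshold are given with ANXA1 and ANXA2. One gene of the partner list is not reported here. Promoter windows came from RefSeq on GRCh38.p14, with an entry for all 10 members.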

Additional observations from a re-analysis of the deposited data

Results flagged for a closer look

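Of 4 S100 genes outside the list tested in both lines, 1 responded more positively and 1 more negatively in SCC15 cells. By the same test of the difference 26.1% and 26% of 14454 genes did, and nothing is read from these counts. The response of S100A16 was higher in SCC15 cells than in SCC25 cells by 0.90 on the log2 scale (SE 0.21, limma adjusted p = 0.00267), and it was higher with squamocin in 3 of 3 libraries of each line. The response of S100A13 was lower in SCC15 cells by the difference of -1.06 (SE 0.23, limma adjusted p = 0.00201), also with 3 of 3 libraries higher in each line. The counts of S100A13 carry the limit of overlapping genes given above. Without the third squamocin library of SCC15 cells the differences were 0.66 and -1.33.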

How the results depend on the processing

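Under the alternatives run, members kept the direction of their log2 fold change with the exception of S100A4 in SCC15 cells, whose log2 fold change was -0.0586 with equal library totals. When every library had to hold at least 10 normalized counts, 3 members were lower in SCC25 cells in place of 5, since that filter removes S100A7 and S100A7A. Under that filter 5305 of 14173 genes were lower in SCC25 cells. Equal library totals gave 3 S100 genes outside the list lower in SCC15 cells, 2 partners higher and 7 lower, 5 regulators lower, and 1 neighbor higher and 5 lower in SCC15 cells, and 2 neighbors higher in SCC25 cells. With all genes above 0 tested, 2 neighbors were lower in SCC15 cells, 2 S100 genes outside the list were lower in SCC25 cells, and 2 responded more positively in SCC15 cells than in SCC25 cells. With at least 10 in every library, 0 S100 genes outside the list and 1 neighbor were lower in SCC25 cells by limma, as the filter removes S100A12, and 0 of the rest were lower at an unadjusted p under 0.05, where edgeR and DESeq2 without that filter gave 1. When 1 library at a time was left out, counts in SCC15 cells ranged from 0 to 2 for S100 genes outside the list that were lower by limma (0 to 2 at an unadjusted p under 0.05, and 1 by edgeR and DESeq2 with all libraries), from 2 to 5 for partners lower, from 1 to 2 for regulators lower, from 2 to 4 for neighbors higher and from 0 to 2 for neighbors lower. The cause of these changes was not tested, other than where the alternative itself removes genes.

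The deviations of same-numbered squamocin and DMSO libraries correlated between -0.051 and 0.0078, so no shared deviation by replicate number was seen. With 3 libraries per group this does not show that the samples were unpaired. With the replicate number as a block, 5 members were higher and 2 lower in SCC15 cells, where 4665 and 4451 of 15902 genes were. In SCC25 cells 5 members were higher and 5 lower, where 6294 and 6317 of 16539 genes were. The counts for all other lists within each line were also those without the block. Depth limits S100A7 in SCC15 cells, S100A7A and S100A12 with squamocin in SCC25 cells, and S100G, S100Z and S100P in SCC25 cells, which were at a few reads or none.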
